A study of Mus musculus with 12 samples.

Results

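The genes described here are 9 genes of the MHC class II antigen presentation pathway of the mouse, read in 4 thymocyte subsets. They are H2-Aa and H2-Ab1, H2-Eb1, the invariant chain Cd74, H2-DMa, H2-Oa, H2-Ob, the transactivator Ciita and the protease cathepsin S (Ctss). Each was followed through the probe sets whose only gene symbol is one of these names, which gave 17 probe sets of the 34945 with 1 symbol, and 9 of 18193 genes. Total RNA of untreated cells, taken straight from C57BL/6 mice without culture, had been read on 12 Affymetrix arrays, 3 per subset. Double-negative (DN) cells were sorted as lacking CD4, CD8α and TCRβ. Double-positive (DP) cells carried CD4 and CD8α. CD4 single-positive (CD4SP) cells carried CD4 without CD8α, with high TCRβ. CD8 single-positive (CD8SP) cells carried CD8α without CD4, also with high TCRβ. No age of the mice is given in the sources used here, and the gate named for DN cells holds no marker of other thymus cells. The labels do not say whether replicates came from separate mice, and p-values therefore cover just the spread between the arrays at hand.

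MHC class II molecules present peptides from the endosomal route to CD4 T cells. An α and a β chain pair in the endoplasmic reticulum with the invariant chain, which blocks the groove and steers the complex to endosomes, where proteases cut it down to the fragment CLIP. The H2-M heterodimer then exchanges CLIP for peptide, and H2-O restrains H2-M. In the thymus, epithelial cells, dendritic cells and B cells are the known class II presenting cells, and cathepsin S is the invariant chain protease of B cells and dendritic cells, while cathepsin L has that role in cortical epithelium. Mouse T cells are not known for class II on their surface. Class II promoters are classically described as carrying an X box and, downstream of it, a Y box, bound by the RFX complex and by NF-Y, on which Ciita acts as a coactivator without binding DNA itself.

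The proximal promoters are shown for 4 class II genes and for Ctss, because the class II genes moved differently between subsets although they are described as sharing this promoter module. The sequences are the 140 bases before the annotated start, from RefSeq (GRCm38.p6), 5′ to 3′ on the gene's strand. Capitals mark the Y box core GATTGG and the X box core ACNGAT, searched on both strands, so that CCAATC is a Y core on the opposite strand.
H2-Aa, chr17:34287824-34287963, minus strand: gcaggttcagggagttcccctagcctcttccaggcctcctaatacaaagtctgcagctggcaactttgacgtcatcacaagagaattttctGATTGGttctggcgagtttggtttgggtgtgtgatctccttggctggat
H2-Eb1, chr17:34305727-34305866, plus strand: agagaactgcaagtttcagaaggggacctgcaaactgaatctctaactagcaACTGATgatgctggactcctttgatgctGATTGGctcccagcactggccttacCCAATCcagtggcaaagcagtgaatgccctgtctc
H2-Ob, chr17:34238765-34238904, plus strand: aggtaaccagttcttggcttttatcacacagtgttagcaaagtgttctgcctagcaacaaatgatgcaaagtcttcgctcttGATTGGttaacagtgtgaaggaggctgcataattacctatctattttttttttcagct
H2-Oa, chr17:34092239-34092378, plus strand: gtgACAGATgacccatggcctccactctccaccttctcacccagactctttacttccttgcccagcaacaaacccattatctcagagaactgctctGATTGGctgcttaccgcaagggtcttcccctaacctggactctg
Ctss, chr3:95526646-95526785, plus strand: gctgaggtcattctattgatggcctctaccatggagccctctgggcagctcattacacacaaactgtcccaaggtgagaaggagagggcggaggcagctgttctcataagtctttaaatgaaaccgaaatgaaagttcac
RefSeq promoters of 300 bases, matched by symbol, were searched for 6 of the 9 genes. Those of H2-Ab1, Cd74 and Ciita were not searched, so whether they hold these letters is not known here. GATTGG on the gene's strand began at position -49 from the start of H2-Aa, -60 for H2-Eb1, -58 for H2-Ob and -44 for H2-Oa. In a window set by these matches (from -60 to -44), 362 of 32851 promoters, or 1.102%, held the same letters on the gene's strand. An X core lay 28 bases upstream of the Y core in H2-Eb1, and H2-Eb1 alone among the 6 had an X core followed by a Y core on the same strand within 20 to 40 bases from start to start. That pair stood in 0.137% of all promoters, against 16.109% with a Y core and 25.814% with an X core anywhere in the 300 bases. Upstream of the printed windows, the H2-DMa promoter had a Y core at -199 and the Ctss promoter an X core at -206, both on the gene's strand, while the printed Ctss window held no match. The X core of H2-Oa, at -137, lay further from its Y core than this range. Only these exact letters were searched, so a promoter without a match or pair is not shown to lack an X box. A match is a description of letters, not of binding.

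Values are the deposited log values per probe set, read as log2 and expressed against the average over the 3 DP arrays. DP therefore averages 0 for each gene, levels cannot be compared between genes, and signal over background is not known. Probe sets of 1 gene were averaged. Differences are given ± the standard error of 1 limma fit over all 12 arrays, with p adjusted by the Benjamini-Hochberg method over 18193 genes, and calls require an adjusted p under 0.05. "Rose" and "fell" mark called genes. The comparisons against DP share its 3 arrays, as those against DN share the DN arrays. Of the gate genes, Cd4 lay between -9.20 and -8.39 on the CD8SP arrays, and Cd8a between -6.84 and -6.35 on the CD4SP arrays. On the DN arrays both lay below DP but above those ranges. Cd4 lay there at -3.88, -6.49 and -5.29, and Cd8a at -2.63, -4.59 and -3.94. Rag1, which is in no gate, lay between -9.44 and -9.01 on the 6 single-positive arrays.

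DN replicate 1 stood apart for the class II genes, below both other DN arrays for all 9 of them. The gap to the mean of those arrays ranged from -0.31 for Ciita to -2.69 for H2-Aa, with a median of -1.94. The same array lay below both others for 12 of 12 B cell markers, 8 of 9 innate lymphoid and NK markers, 10 of 13 dendritic cell markers and 8 of 13 macrophage markers, against 43.1% of all genes. It also did so for 10 of 11 turnover and surface partners, 12 of 15 endosomal proteases, 9 of 14 thymic epithelial markers and 10 of 16 thymocyte identity markers. For the other 6 thymocyte identity markers, Cd4 and Cd8a among them, this array lay above both others. The median gap was -1.46 for B cell, -1.47 for innate lymphoid and NK, -0.43 for macrophage and -0.26 for dendritic cell markers. It was -0.39 for turnover and surface partners, -0.29 for proteases, -0.15 for epithelial and -0.11 for thymocyte identity markers, against -0.03 over all genes. Why this array lay lower was not tested. The heat shock gene Hspa1b, singled out after its values were seen, lay at 3.76 here, while DN replicates 2 and 3 had 0.97 and 1.67. In each of the 4 subsets it was highest on replicate 1. CD8SP replicate 1 had the lowest array weight (0.28) and DN replicate 1 the next (0.53). The SD over the DN arrays was above the pooled SD of the other groups for 8 of the 9 genes, for H2-Eb1 0.71 against 0.04, and the shared fit carries that spread into every comparison. Calls of the 9 genes that differ without DN replicate 1, and counts of the other lists that it moves by over 1.5 times, are therefore given as well.

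**Figure D1:**
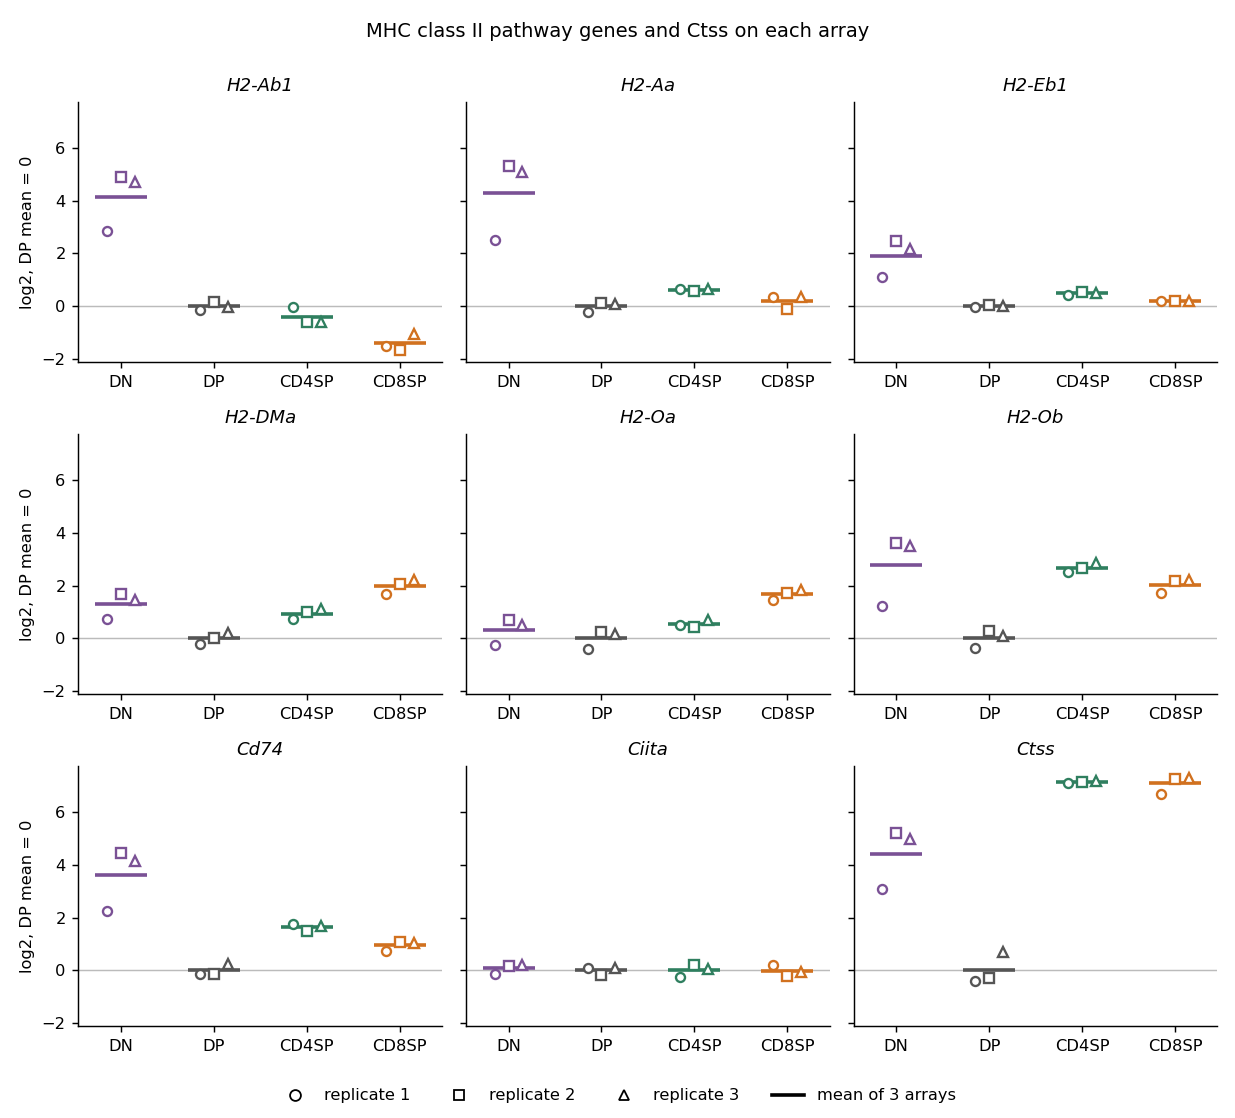
Deposited log2 value relative to the DP mean (y axis) of the 9 genes, 1 panel each, on every array by subset (x axis); symbols are replicates and bars the mean of 3 arrays. DN replicate 1 lies below the other DN arrays in each panel, and Ctss reaches 6.70 to 7.29 on the 6 single-positive arrays.

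**Figure D2:**
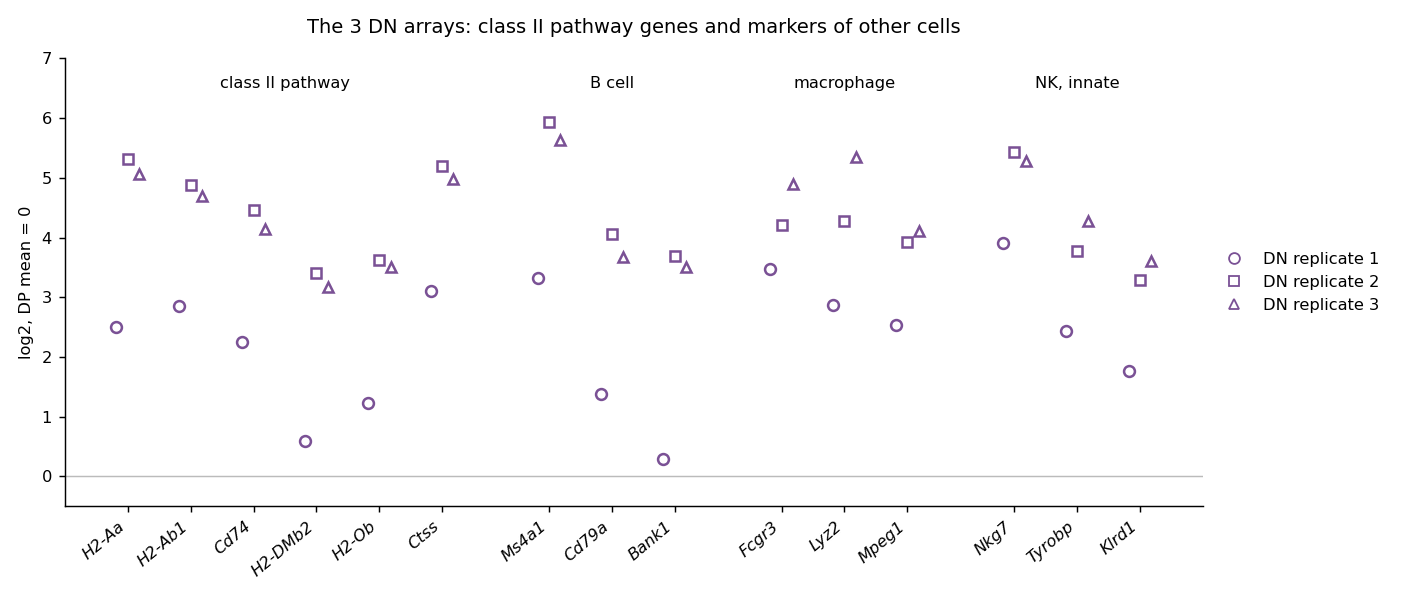
Log2 values relative to the DP mean (y axis) on the 3 DN arrays, shown by symbol, for 5 of the 9 genes with H2-DMb2, and for markers of B cells, macrophages and innate lymphoid or NK cells. DN replicate 1 is the lowest for each gene shown, for Ms4a1 at 3.33 against 5.93 and 5.63.

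The first comparison asked how the pathway differs between DP cells and the DN cells that precede them. The classical chains, the invariant chain and the protease fell together in DP: 7 of the 9 genes fell and 0 rose, where 18.8% of all genes fell and 17.8% rose (36.6% in either direction). The median difference of the 9 genes was -2.79, against 0.04 over all genes. The DP and DN arrays did not overlap for these 7 genes, as for 49.8% of all genes. The arrays hold RNA of sorted populations, so fewer cells of a class II positive type and less RNA per cell cannot be told apart.

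H2-Ab1, the β chain of the I-A molecule, lay at -0.15, 0.17 and -0.02 on the DP arrays, against 2.85, 4.88 and 4.70 on the DN arrays. Every DN array was far above every DP array, and the difference was -4.15 ± 0.44 (adjusted p = 3.03e-05), or 17.7-fold. H2-Aa, its α chain partner, lay between -0.20 and 0.11 on the DP arrays and at 2.50, 5.31 and 5.07 on the DN arrays, and fell in DP by 4.29 ± 0.57 (adjusted p = 0.00015). Both I-A chains thus ranked among the steepest falls of the comparison, H2-Aa 37th and H2-Ab1 43rd of 18193 genes.

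H2-Eb1, the β chain of I-E, fell in DP by 1.92 ± 0.26 (adjusted p = 0.000188), with 1.11, 2.47 and 2.18 on the DN arrays. C57BL/6 mice are known to lack surface I-E because their H2-Ea gene is not transcribed. H2-Ea lay between -0.13 and 0.10 on the DP arrays and between -0.39 and -0.25 on the DN arrays, and was not called. Cd74, the invariant chain, lay between -0.14 and 0.26 in DP and at 2.26, 4.46 and 4.14 in DN, a difference of -3.62 ± 0.44 (adjusted p = 8.42e-05).

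The genes that edit peptide loading were split. H2-DMa, the α chain of H2-M, fell by 1.28 ± 0.24 in DP (adjusted p = 0.0014). H2-Ob, the β chain of H2-O, lay at -0.37, 0.29 and 0.08 on the DP arrays, against 1.23, 3.63 and 3.50 on the DN arrays, and fell by 2.79 ± 0.51 (adjusted p = 0.00138). Its partner H2-Oa lay at -0.41, 0.25 and 0.16 on the DP arrays and at -0.26, 0.69 and 0.49 on the DN arrays. The groups overlapped for H2-Oa through DN replicate 1, and its difference of -0.30 ± 0.24 was not called (adjusted p = 0.366). Without DN replicate 1 it was -0.59, called at an adjusted p of 0.042 in limma, which made 8 falls, where 18.4% of all genes fell in that fit. H2-DMb2, a β chain of H2-M, fell by 2.39 ± 0.56 (adjusted p = 0.00607).

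Ctss lay at -0.42, -0.28 and 0.70 on the DP arrays, against 3.10, 5.21 and 4.97 on the DN arrays. It was the 36th steepest fall of all genes, as it fell by 4.43 ± 0.48 (adjusted p = 3.81e-05), or 21.5-fold on this scale. Ciita, by contrast, stayed within -0.17 to 0.10 on the DP arrays and -0.12 to 0.21 on the DN arrays. Its difference was -0.09 ± 0.15 (95% interval -0.42 to 0.24, adjusted p = 0.703), so the class II genes that fell did so beside a Ciita signal with no detected change. Without signal over background, whether the Ciita probe sets measured any transcript on these arrays cannot be told.

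With all 12 arrays, markers of B cells, macrophages and innate lymphoid or NK cells fell more often than all genes, of which 18.8% fell and 17.8% rose. Dendritic cell and thymic epithelial markers did not. Of 12 measured B cell markers 4 fell and 0 rose in DP, among them Ms4a1 (CD20), which fell by 4.96 ± 0.52 (adjusted p = 2.96e-05), and Cd79a, a chain of the B cell receptor complex, which fell by 3.04 ± 0.54 (adjusted p = 0.00115). The other 8 were not called. Among them Pax5, with a difference of 0.17 ± 0.11 (adjusted p = 0.267 in limma), lay higher on each DP array than on any DN array. The mean of the B cell list ranged from -0.02 to 0.02 over the DP arrays, against 0.25 to 1.95 over the DN arrays. Without DN replicate 1, 10 of the 12 fell, where 18.4% of all genes fell in that fit. Of 13 macrophage and monocyte markers 5 fell, 0 rose and 8 were not called. The Fc receptor gene Fcgr3 fell by 4.19 ± 0.43 and the lysozyme gene Lyz2 fell by 4.17 ± 0.47. Adgre1, which was not called, lay at -0.21, -0.21 and 0.05 on the DN arrays, against -0.04, -0.13 and 0.17 on the DP arrays. The macrophage list mean was -0.10 to 0.08 in DP and 0.76 to 1.46 in DN. Without DN replicate 1, 7 of the macrophage markers and 8 of the innate lymphoid and NK markers fell. Innate lymphoid and NK markers fell in 7 of 9 cases, with list means of -0.22 to 0.16 in DP and 1.14 to 2.59 in DN. Dendritic cell markers fell in 1 of 13 (Irf8 fell by 1.56 ± 0.16) and, without DN replicate 1, in 4 of 13, with Itgax, Cd209a and Cd24a added, and their list mean was -0.05 to 0.04 in DP and 0.03 to 0.34 in DN. Of 14 thymic epithelial markers 2 fell and 1 rose, with list means of -0.03 to 0.05 in DP and -0.09 to 0.09 in DN. Values relative to DP give no marker a level of 0, and the part of these cells in the class II falls was not tested.

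The second comparison set CD4SP cells against DP cells. The I-A chains were not called, while the invariant chain, peptide loading genes and, above all, Ctss rose. In all, 4 of the 9 genes rose and 0 fell, against 16.4% of all genes that rose and 16.2% that fell (32.7% in either direction). At an unadjusted p under 0.05, 5 genes were higher and 0 lower. The median difference of the 9 genes was 0.62, against 0.04 over all genes.

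Ctss lay at 7.09, 7.13 and 7.18 on the CD4SP arrays, against -0.42, -0.28 and 0.70 on the DP arrays. This was the 4th largest rise among 18193 genes, at 7.13 ± 0.48 (adjusted p = 1.16e-06). The fold on this scale is 140.3, computed against a DP level whose signal over background is not known.

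Cd74 lay between 1.51 and 1.75 on the CD4SP arrays and rose by 1.64 ± 0.44 (adjusted p = 0.0147). H2-Ob lay at 2.50, 2.67 and 2.87 in CD4SP, above each DP array, and rose by 2.68 ± 0.51 (adjusted p = 0.00194). H2-DMa lay at 0.73, 0.98 and 1.11 in CD4SP, against -0.21, 0.01 and 0.20 in DP, and rose by 0.94 ± 0.24 (adjusted p = 0.0103).

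The remaining genes gave smaller differences. H2-Ab1 differed by -0.39 ± 0.44 (adjusted p = 0.545), with CD4SP arrays at -0.01, -0.58 and -0.58 that overlapped those of DP. H2-Aa lay at 0.65, 0.56 and 0.65 in CD4SP, above each DP array, with a difference of 0.62 ± 0.57 (adjusted p = 0.455). H2-Eb1 lay at 0.41, 0.53 and 0.50 in CD4SP, against -0.05, 0.04 and 0.01 in DP, with a difference of 0.48 ± 0.26 (adjusted p = 0.196).

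H2-Oa differed by 0.55 ± 0.24 (adjusted p = 0.111) and also did not overlap. In all, 7 of the 9 genes had CD4SP arrays above each DP array, against 49.4% of all genes with groups that did not overlap in either direction. With DN replicate 1 left out, the same differences gave 7 rises in limma, where 16.6% of all genes rose in that fit, adding H2-Aa (adjusted p = 0.00815), H2-Eb1 (adjusted p = 0.0018) and H2-Oa (adjusted p = 0.0365). Only the estimate of the spread changes there, since that array belongs to neither subset. Ciita differed by 0.00 ± 0.15 (95% interval -0.33 to 0.33).

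The third comparison set CD8SP cells against DP cells. Ctss again rose the most of the 9 genes, the peptide editing genes rose, and H2-Ab1 fell. Of the 9 genes, 4 rose and 1 fell, against 18.2% of all genes that rose and 20.9% that fell (39.0% in either direction). The median difference was 0.94, against 0.00 over all genes.

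H2-DMa lay at 1.66, 2.06 and 2.20 on the CD8SP arrays, against -0.21, 0.01 and 0.20 on the DP arrays, and rose by 1.97 ± 0.24 (adjusted p = 6.36e-05). H2-Oa lay at 1.45, 1.70 and 1.84 in CD8SP, above each DP array, and rose by 1.66 ± 0.24 (adjusted p = 0.000268). H2-Ob, at 1.73, 2.16 and 2.21, rose by 2.04 ± 0.51 (adjusted p = 0.0086). Thus all 3 measured genes of H2-M and H2-O among the 9 rose in CD8SP.

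Ctss lay at 6.70, 7.27 and 7.29 on the CD8SP arrays and rose by 7.08 ± 0.48 (adjusted p = 1.1e-06), again the 4th largest rise of all genes. Cd74 lay at 0.74, 1.07 and 1.03, above each DP array, but its difference of 0.94 ± 0.44 was not called (adjusted p = 0.118). It was called without DN replicate 1 (adjusted p = 0.000556 in limma). H2-Aa and H2-Eb1 each differed by 0.19 and were not called, and Ciita differed by -0.01 ± 0.15.

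H2-Ab1 was the 1 gene that fell. It lay at -1.52, -1.67 and -1.05 on the CD8SP arrays, below each DP array, a difference of -1.41 ± 0.44 (adjusted p = 0.0252). The call was lost without DP replicate 2 (adjusted p = 0.0732), DP replicate 3 (0.0589), CD8SP replicate 1 (0.0653) or CD8SP replicate 2 (0.0758). CD8SP and DP arrays did not overlap for 7 of the 9 genes, against 48.6% of all genes.

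**Figure D3:**
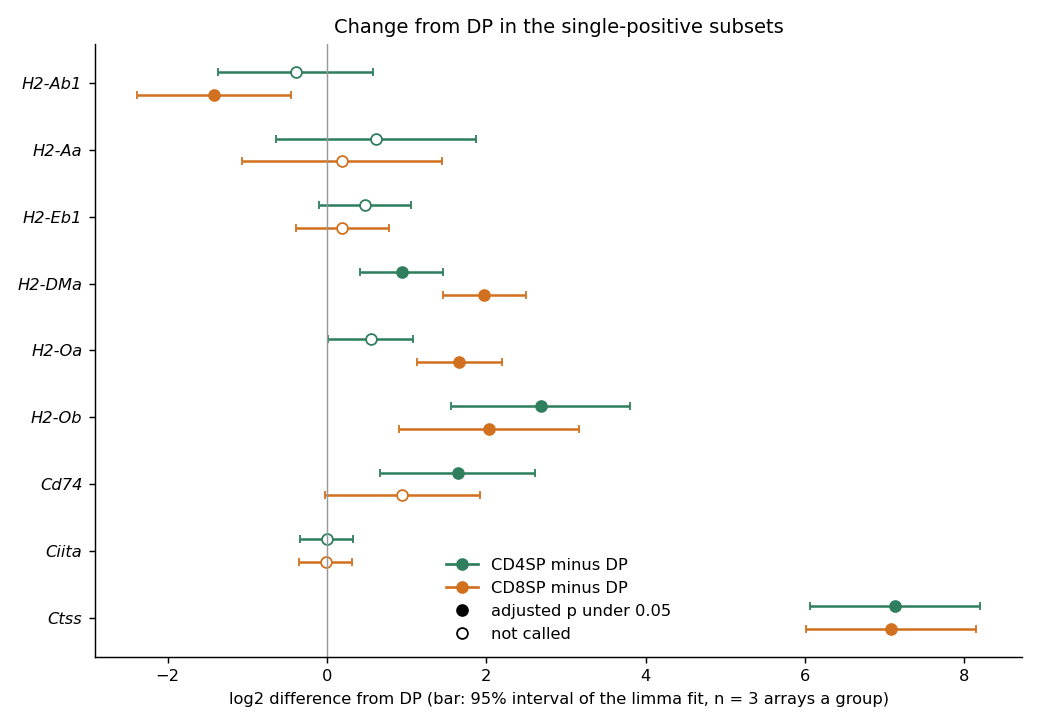
Log2 difference from DP (x axis) of each gene in CD4SP and CD8SP cells, with the 95% interval of the limma fit as a bar, filled points for called genes and DP as the line at 0. Ctss lies far to the right of the others in both subsets, H2-DMa and H2-Oa lie further right in CD8SP than in CD4SP, and the H2-Ab1 interval in CD8SP lies left of 0.

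The 3 probe sets of H2-Ab1 all lay lower in CD8SP but by different amounts. Probe set 1450648_s_at fell by 2.01 ± 0.48 (adjusted p = 0.00679 over all probe sets). The others, 1425477_x_at (-1.53 ± 0.65, adjusted p = 0.0882) and 1451721_a_at (-0.70 ± 0.45, adjusted p = 0.245), were not called. The suffixes mark probe sets that can match further transcripts.

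**Figure D4:**
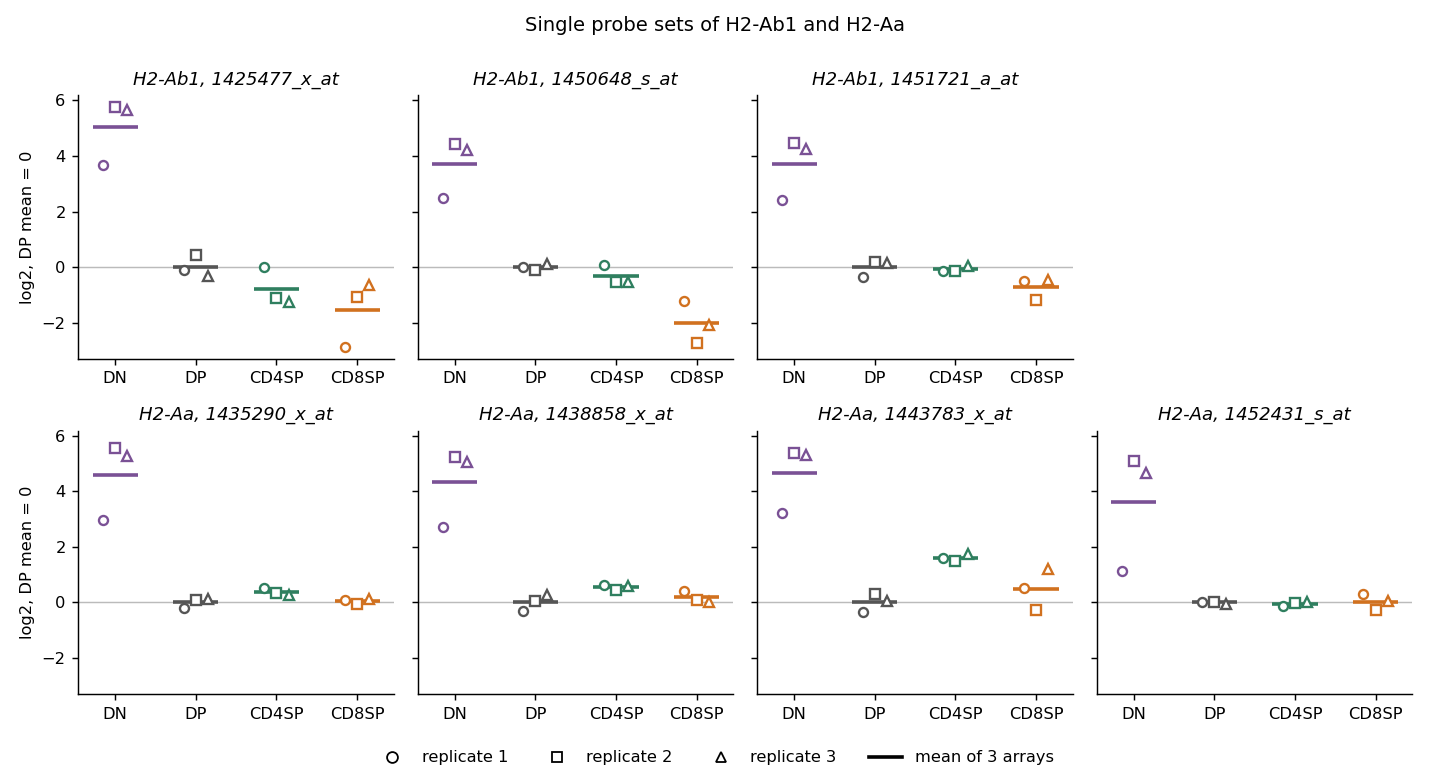
Log2 value relative to the DP mean (y axis) of the 3 probe sets of H2-Ab1 and the 4 of H2-Aa on every array by subset (x axis); symbols are replicates and bars the mean of 3 arrays. For H2-Aa, 1452431_s_at lies at 1.11 on DN replicate 1, against 5.07 and 4.66 on replicates 2 and 3, and 1443783_x_at lies between 1.47 and 1.73 on the CD4SP arrays.

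Probe sets of H2-Aa also disagreed. The difference of CD4SP from DP was 1.60 ± 0.53 for 1443783_x_at, called at an adjusted p of 0.0385 in limma, and between -0.04 and 0.55 for the other 3, which were not called. Both probe sets of H2-DMa rose in each single-positive subset, by 1.15 and 0.72 in CD4SP and by 2.41 and 1.54 in CD8SP. None of the 3 Ciita probe sets was called against DP in either subset. In CD4SP they differed in sign, at 0.45 for 1447075_at, -0.38 for 1421211_a_at and -0.08 for 1421210_at. The CD4SP arrays lay above each DP array for 1447075_at. Over all single probe sets 31.4% were called between CD4SP and DP and 39.3% between CD8SP and DP. A further probe set names H2-Ob together with another gene and was not used.

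No B cell marker was called higher beside Ctss with all 12 arrays. In CD4SP 0 of 12 rose and 2 fell, and in CD8SP 0 rose and 0 fell at an adjusted p under 0.05 in limma. At an unadjusted p under 0.05, 1 was higher and 2 lower in CD4SP, and 0 were higher and 0 lower in CD8SP. Without DN replicate 1, 1 of the 12 rose (Cr2) and 2 fell in CD4SP, and 2 rose (Cr2 and Ms4a1) and 0 fell in CD8SP at an adjusted p under 0.05. The B cell list mean was -0.36 to -0.23 on the CD4SP arrays and 0.01 to 0.07 on the CD8SP arrays, against -0.02 to 0.02 in DP. The low CD4SP mean came from 1 gene, Cd79b, which lay at -5.07 to -4.09 on the CD4SP arrays. Without it, an alternative chosen after seeing the data, the mean of the other 11 markers was 0.04 to 0.12 in CD4SP and 0.02 to 0.14 in CD8SP, against -0.02 to 0.02 in DP. Ms4a1 lay between 0.38 and 0.43 in CD4SP and between 0.48 and 0.94 in CD8SP, against -0.22 to 0.23 in DP.

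Some markers of other cells rose, with macrophage counts not far from the all-gene shares. Of 13 macrophage markers 3 rose and 0 fell in CD4SP, and 3 rose and 1 fell (Itgam) in CD8SP, beside 16.4% and 18.2% of all genes that rose. The list means were of 0.44 to 0.50 in CD4SP, 0.09 to 0.30 in CD8SP and -0.10 to 0.08 in DP. Fcgr3 rose by 2.41 ± 0.43 in CD4SP (adjusted p = 0.00126) and by 1.56 ± 0.43 in CD8SP (adjusted p = 0.0143), while Lyz2 lay between 0.48 and 0.56 in CD4SP and between -0.52 and 0.23 in CD8SP and was not called.

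Dendritic cell list means were -0.13 to -0.02 in CD4SP, -0.10 to -0.07 in CD8SP and -0.05 to 0.04 in DP, with 2 markers up and 1 down in CD4SP and 3 up and 1 down in CD8SP. The marker that fell in both was Cd24a, also a marker of immature thymocytes, at -2.59 to -2.38 in CD4SP and -2.97 to -2.85 in CD8SP. Without it, again an alternative chosen after seeing the data, the mean of the other 12 markers was 0.06 to 0.19 in CD4SP and 0.14 to 0.16 in CD8SP, against -0.06 to 0.05 in DP. Thymic epithelial list means were 0.03 to 0.13 in CD4SP, 0.08 to 0.15 in CD8SP and -0.03 to 0.05 in DP, with 3 up and 1 down in each. Of all genes 16.4% rose and 16.2% fell in CD4SP, and 18.2% rose and 20.9% fell in CD8SP. The dendritic and epithelial counts of rises lie near these shares. Innate lymphoid and NK list means were 0.83 to 1.15 in CD4SP, 2.14 to 2.67 in CD8SP and -0.22 to 0.16 in DP, with 3 of 9 up in CD4SP and 5 in CD8SP. The members of this list were split in CD8SP. Nkg7 lay between 7.13 and 7.73 and Klrd1 between 5.19 and 6.28 there. Tyrobp lay between -0.16 and -0.001 and Klrk1 between 0.002 and 0.14 on the same arrays. The part of other cells, and of the sorted cells themselves, in these marker values and in the rises was not tested.

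CD4SP and CD8SP cells were compared directly to ask whether the pathway differs between the lineages. H2-DMa and H2-Oa were lower in CD4SP, and the other class II genes were not called. Of the 9 genes 2 fell and 0 rose in CD4SP relative to CD8SP, against 4.91% of all genes that fell and 7.78% that rose (12.7% in either direction). At an unadjusted p under 0.05, 2 genes were lower and 1 higher.

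H2-DMa lay at 0.73, 0.98 and 1.11 in CD4SP and at 1.66, 2.06 and 2.20 in CD8SP, a difference of -1.04 ± 0.24 (adjusted p = 0.0158). The call on H2-DMa was lost without CD4SP replicate 1 (adjusted p = 0.0602), CD8SP replicate 2 (0.0533) or CD8SP replicate 3 (0.0589). H2-Oa lay at 0.52, 0.43 and 0.70 in CD4SP and at 1.45, 1.70 and 1.84 in CD8SP, a difference of -1.11 ± 0.24 (adjusted p = 0.0129). Its call held with each array left out in turn.

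Opposite to these, H2-Ab1 lay higher in CD4SP by 1.02 ± 0.44 (adjusted p = 0.166), and H2-Ob by 0.65 ± 0.51 (adjusted p = 0.471). Cd74 lay between 1.51 and 1.75 in CD4SP and between 0.74 and 1.07 in CD8SP, a difference of 0.70 ± 0.44 (adjusted p = 0.355). For 7 of the 9 genes the CD4SP and CD8SP arrays did not overlap, 5 higher and 2 lower in CD4SP, where 30.3% of all genes had groups that did not overlap. Without DN replicate 1, H2-Ab1 (adjusted p = 0.00756), H2-Ob (0.0469) and Cd74 (0.0116) were called higher in CD4SP in limma. H2-Aa differed by 0.43 ± 0.57 and H2-Eb1 by 0.29 ± 0.26. Of the single probe sets of H2-Ab1, 1450648_s_at was higher in CD4SP by 1.69 ± 0.48 (adjusted p = 0.0433), in a comparison that called 12.9% of all single probe sets.

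The CD4SP arrays of Ctss lay inside its CD8SP range. For Ctss the difference was 0.05 ± 0.48, with a 95% interval from -1.02 to 1.12, which does not show that the subsets are alike.

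Set against DN cells, the single-positive subsets lay low in the chains and high in Ctss. In CD4SP 4 genes fell and 1 rose, against 21.0% and 22.6% of all genes (43.7% in either direction). In CD8SP 4 fell and 3 rose, against 22.3% and 18.7% of all genes (40.9% in either direction). H2-Ab1 fell by 4.54 ± 0.44 in CD4SP (adjusted p = 1.12e-05) and fell by 5.56 ± 0.44 in CD8SP (adjusted p = 3.92e-06). H2-Aa, H2-Eb1 and Cd74 also fell in both, where Cd74 fell by 1.98 ± 0.44 in CD4SP and fell by 2.68 ± 0.44 in CD8SP.

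Ctss was higher than in DN by 2.71 ± 0.48 in CD4SP (adjusted p = 0.000948) and by 2.66 ± 0.48 in CD8SP (adjusted p = 0.00124). H2-Oa rose in CD8SP by 1.36 ± 0.24 (adjusted p = 0.00109). H2-DMa also rose in CD8SP, by 0.69 ± 0.24 (adjusted p = 0.0369), but its arrays overlapped those of DN and the call was lost without DN replicate 1 (adjusted p = 0.116), CD4SP replicate 2 (0.0503), CD8SP replicate 2 (0.0916) or CD8SP replicate 3 (0.112). H2-Ob differed by -0.10 ± 0.51 in CD4SP and by -0.75 ± 0.51 in CD8SP and was not called. Without DN replicate 1 it fell by 0.88 in CD4SP (adjusted p = 0.00713) and fell by 1.53 in CD8SP (adjusted p = 0.000322), and H2-DMa fell by 0.63 in CD4SP (adjusted p = 0.0236).

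The 9 genes thus followed several orders. H2-Ab1 was highest in DN, with DP, CD4SP and CD8SP in descending order and no call between neighbours among these. For H2-Aa, H2-Eb1 and Cd74, DN was highest and CD4SP, CD8SP and DP followed, again with no call between those neighbours. H2-Ob had that same order, and only the step from CD8SP to DP was called. H2-DMa ran from CD8SP through DN and CD4SP to DP, with no call between DN and CD4SP. H2-Oa was highest in CD8SP, and its other neighbours (CD4SP, DN, DP) were not told apart by the fit. In Ctss the single-positive subsets were not told apart, and DN and then DP lay below them. No neighbours were called for Ciita.

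The genes known to act on class II promoters were described next. Of 11 measured factors 5 rose and 1 fell in DP against DN (median 0.22, all genes 0.04). In CD4SP against DP 1 rose and 7 fell (median -0.40, all genes 0.04), and in CD8SP against DP 1 rose and 8 fell (median -0.44, all genes 0.00). Of all genes, 17.8%, 16.4% and 18.2% rose in these comparisons and 18.8%, 16.2% and 20.9% fell. In each of these comparisons most called factors moved opposite to most of the called class II genes.

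Irf1, the interferon regulatory factor that acts on a Ciita promoter, moved opposite to most of the called factors. It lay between -0.07 and 0.04 in DP and between 0.77 and 1.13 in DN, and fell by 0.96 ± 0.11 in DP (adjusted p = 4.12e-05). It then rose by 2.21 ± 0.11 in CD4SP (adjusted p = 1.03e-07) and by 2.08 ± 0.11 in CD8SP (adjusted p = 1.44e-07) relative to DP. Nfya, a subunit of the Y box factor NF-Y, fell by 0.68 ± 0.12 in CD4SP (adjusted p = 0.00118) and fell by 1.24 ± 0.12 in CD8SP (adjusted p = 1.32e-05), and was higher in CD4SP than in CD8SP by 0.57 ± 0.12 (adjusted p = 0.0109). The acetyltransferase gene Kat2b rose by 0.79 ± 0.10 in DP against DN (adjusted p = 0.000138) and fell by 0.90 ± 0.10 in CD8SP against DP (adjusted p = 5.16e-05).

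Among the other class II and loading genes, 3 of 5 were measured. H2-DMb2 was the 1 called in DP against DN, as given above, and H2-Eb2 rose in CD8SP against DP by 0.63 ± 0.16 (adjusted p = 0.0109). None was called in CD4SP against DP with all 12 arrays (1 higher and 0 lower at an unadjusted p under 0.05 in limma), and without DN replicate 1 H2-DMb2 was called there, at 0.27 (adjusted p = 0.0357 in limma).

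The proteases that share the endosome with cathepsin S did not move as a block. Of 15 measured genes, Ctss not among them, 3 rose and 6 fell in DP against DN (median -0.05), 5 rose and 3 fell in CD4SP against DP (median 0.10), and 4 rose and 3 fell in CD8SP against DP (median -0.14). The all-gene medians were 0.04, 0.04 and 0.00 in that order. Of all genes 17.8%, 16.4% and 18.2% rose and 18.8%, 16.2% and 20.9% fell, so the CD8SP counts lie near the all-gene shares.

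Cathepsin L (Ctsl) ran opposite to Ctss in these 3 comparisons. It lay between -0.14 and 0.16 in DP and between -1.63 and -1.24 in DN, a rise in DP of 1.46 ± 0.15 (adjusted p = 2.21e-05). On the CD4SP arrays it lay at -2.46, -2.51 and -2.83, and fell by 2.60 ± 0.15 relative to DP (adjusted p = 3.12e-07). On the CD8SP arrays it lay at -2.29, -1.91 and -1.98, and fell by 2.06 ± 0.15 (adjusted p = 1.53e-06). Ctsd, the aspartic protease cathepsin D, went the same ways. It rose by 0.84 ± 0.09 in DP against DN, fell by 0.52 in CD4SP and fell by 0.30 in CD8SP relative to DP.

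Ifi30, the lysosomal thiol reductase GILT, followed the directions of Ctss. It fell by 2.00 ± 0.20 in DP against DN (adjusted p = 1.79e-05), and rose by 2.43 ± 0.20 in CD4SP (adjusted p = 4.04e-06) and by 1.54 ± 0.20 in CD8SP (adjusted p = 9.82e-05) relative to DP. The legumain gene Lgmn, an asparaginyl endopeptidase, lay between 2.33 and 2.53 on the CD4SP arrays and between 0.52 and 0.70 on the CD8SP arrays. It was higher in CD4SP than in CD8SP by 1.77 ± 0.21 (adjusted p = 0.000431). Ctsw, the cathepsin of cytotoxic lymphocytes, was lower in CD4SP than in CD8SP (-1.90 ± 0.47, adjusted p = 0.0239), and rose against DP in both, by 4.14 in CD4SP and by 6.04 in CD8SP.

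**Figure D5:**
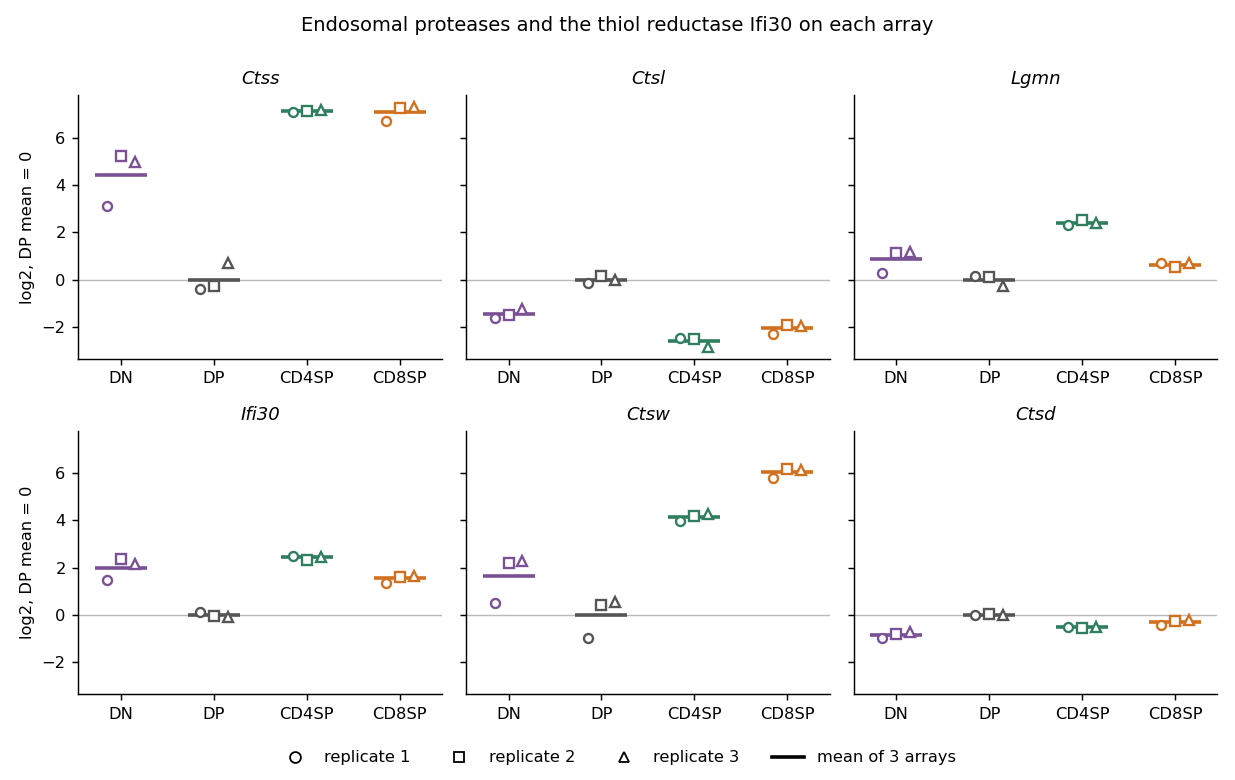
Log2 value relative to the DP mean (y axis) of Ctss, Ctsl, Lgmn, Ifi30, Ctsw and Ctsd on every array by subset (x axis); symbols are replicates and bars the mean of 3 arrays. Ctss lies at 6.70 or above on the 6 single-positive arrays, and Ctsl at -1.91 or below on the same arrays.

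The inhibitors of these proteases differed between the lineages through 2 genes, Cst7 and Cst3. Cst7, cystatin F, an inhibitor of cysteine cathepsins in immune cells, lay at 1.02, 2.03 and 2.05 in CD4SP and between 5.09 and 5.26 in CD8SP, a difference of -3.49 ± 0.35 (adjusted p = 0.000162). It fell in DP against DN by 3.35 ± 0.35 (adjusted p = 2.96e-05). Of 6 measured inhibitors 0 rose and 3 fell in DP against DN, 2 rose and 1 fell in CD4SP against DP, and 3 rose and 1 fell in CD8SP against DP. The all-gene shares beside these counts are those given with the proteases. Cystatin C (Cst3), a secreted inhibitor, was the 1 that fell in each single-positive subset, where it fell by 0.94 ± 0.08 in CD4SP and fell by 0.53 ± 0.08 in CD8SP. It was lower in CD4SP than in CD8SP (-0.40 ± 0.08, adjusted p = 0.00801).

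The last list held ubiquitin ligases that turn class II over, costimulatory molecules and the tetraspanins that stand beside class II in the membrane. Its counts are to be read beside the all-gene shares given with the proteases. Of 11 measured genes 2 rose and 7 fell in DP against DN (median -0.80; 1 rose without DN replicate 1, where Cd37 lost its call), 5 rose and 1 fell in CD4SP against DP (median 0.94), and 6 rose and 1 fell in CD8SP against DP (median 0.64). The tetraspanin Cd53 lay between 4.15 and 4.22 in CD4SP and between 3.81 and 3.97 in CD8SP, and rose against DP by 4.18 ± 0.29 in CD4SP (adjusted p = 1.26e-06) and by 3.91 ± 0.29 in CD8SP (adjusted p = 1.84e-06). Cd9 rose by 3.89 ± 0.29 in CD4SP and by 2.94 ± 0.29 in CD8SP. Cd86, a ligand of CD28, rose by 2.02 ± 0.25 in CD4SP (adjusted p = 0.000102). Cd81 ran the other way, and fell by 1.87 ± 0.13 in CD8SP relative to DP (adjusted p = 9.85e-07), and was higher in CD4SP than in CD8SP by 1.45 ± 0.13 (adjusted p = 6.79e-05).

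Patterns most like those of Cd74 and Ctss were sought among the 3574 genes that met a span of at least 1 between group means. The 12 arrays fall into 4 groups, so Pearson's r mostly reflects 4 means and is given as a description. For Cd74 the 6 nearest genes were Grn (r = 0.971), Fcer1g (0.962), Hhex (0.957), Maf (0.957), Mdfic (0.956) and Casp1 (0.955). Each of these 6 was lower on DN replicate 1 than on the other DN arrays. For Ctss they were Smad7 (0.996), Sting1 (0.995), Cd200 (0.993), Ccnd2 (0.992), Cd53 (0.990) and Arhgap9 (0.990). Smad7 lay between 6.98 and 7.03 on the CD4SP arrays and between 6.97 and 7.32 on the CD8SP arrays, close to the values of Ctss, with 3.77, 4.83 and 4.96 on the DN arrays.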

How the data were processed

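RNA of the 12 sorted thymocyte samples was read on Affymetrix arrays, per the labels' protocols. The authors deposited 1 log value per probe set, read here as log2, already relative to the DP mean: the largest absolute DP mean is 1.27e-06. The submitters' processing notes list MAS5 with no version or role, and the genome build and log base are not given in the sources used here. No normalization was added, since array medians lay between -0.10 and 0.05. Gene symbols came from the platform's annotation. Probe sets with several symbols (932), no name (9211) and the 64 controls were left out. The main test was limma 3.58.1 (R 4.3.3) on 4 group means, with eBayes without a trend and two-sided p-values. The fit was tested on simulated data. Promoters were searched in Python 3.11.15. Alternatives covered the choice of probe set, variance trend, array weights, 2 normalizations, the arrays fitted, the replicate number and left-out arrays.

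The 9 genes, the lists and the tests were chosen with earlier results of these data known. All 9 genes are named throughout. From each pathway list up to 4 called genes with the lowest adjusted p per comparison could be named, with Ctsl, Ctsd and Ifi30 always and up to 3 genes per marker list. The 6 genes most like Cd74 and Ctss were taken by Pearson's r. H2-Ea, Rag1, Cd4, Cd8a, Pax5 and Adgre1 were singled out after their values were seen. Also singled out in this way were Ms4a1 and Lyz2 in the single-positive subsets, Cd83, Hspa1b, Cd79b, Cd24a, Cr2 and the other markers named for a changed call. So were Nkg7, Klrd1, Tyrobp and Klrk1 in CD8SP. Of 150 listed symbols 132 were measured, and the others are not analysed here. With 3 arrays per group, the number of arrays limits the precision.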

Additional observations from a re-analysis of the deposited data

Results flagged for a closer look

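For 2 of the 9 genes the change from DP differed between the single-positive subsets by the fit's direct contrast. H2-DMa rose less in CD4SP than in CD8SP, with a CD4SP minus CD8SP difference of -1.04 (adjusted p = 0.0158 in limma) and group means of 0.94 in CD4SP and 1.97 in CD8SP. H2-Oa gave a difference of -1.11 (adjusted p = 0.0129 in limma), with group means of 0.55 in CD4SP and 1.66 in CD8SP. The arrays of the subsets did not overlap for either gene. This flagging did not search groups of 3 arrays for single outlying samples, and DN replicate 1 is described above.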

How the results depend on the processing

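Of 1188 values of single genes under the alternatives, 1134 kept their side of the threshold, 31 gained a call, 23 lost one and 0 called values reversed. Among the 1134, 34 were not called and changed sign. In DP against DN, 7 to 8 genes were called with single arrays left out (0 higher, 7 to 8 lower). CD4SP against DP gave 4 to 7 called (4 to 7 higher, 0 lower), and 7 called and 7 higher without DN replicate 1, alone or together with CD8SP replicate 1. CD8SP against DP gave 4 to 6 called (4 to 5 higher, 0 to 1 lower). CD4SP against CD8SP gave 1 to 5 called (0 to 3 higher, 1 to 2 lower). CD4SP against DN gave 5 to 7 called (1 higher, 4 to 6 lower), and CD8SP against DN 6 to 7 (2 to 3 higher, 4 to 5 lower). The genes and arrays behind these ranges are named with the results.

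Quantile normalization lowered most counts: to 3 called and 2 higher in CD8SP against DP, 0 called and 0 lower in CD4SP against CD8SP (1 higher and 1 lower in limma at an unadjusted p under 0.05), 0 higher in CD4SP against DN, and 4 called and 0 higher in CD8SP against DN. Against DP, it lost the calls of H2-DMa in CD4SP (adjusted p = 0.0867 in limma), and of H2-Oa (0.0578) and H2-Ob (0.0763) in CD8SP. Between CD4SP and CD8SP, it lost those of H2-DMa (0.264) and H2-Oa (0.487). Against DN, it lost those of Ctss in CD4SP (0.0738) and CD8SP (0.09), and of H2-DMa (0.262) and H2-Oa (0.103) in CD8SP. Over all genes it called 3137, 3119, 2846, 295, 4338 and 3237 in the 6 comparisons (DP against DN, CD4SP and CD8SP against DP, CD4SP against CD8SP, CD4SP and CD8SP against DN), against 6660, 5942, 7103, 2308, 7942 and 7447 as reported. The DP arrays, centred on their own mean, have an SD of 0.22 to 0.23 over probe sets, against 0.70 to 0.86 on the others, which this setting forces to 1 distribution. The highest-mean and the smallest-spread probe set each gave 0 lower in CD8SP against DP, since H2-Ab1 was then read by 1451721_a_at. In CD4SP against CD8SP the 6 arrays alone gave 4 called and 2 higher, leaving out DN replicate 1 and CD8SP replicate 1 together gave 4 called and 2 higher, and single probe sets gave 1 higher (H2-Ab1). There, array weights called 3578 of all genes, the 6 arrays alone 1348, and the fits without CD4SP replicate 2 or 3 called 1528 and 1374, against 2308.

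Centring each array on its median changed the share of higher genes among those called to 38.4% from 48.6% in DP against DN, to 47.6% from 61.3% in CD4SP against CD8SP and to 39.6% from 51.8% in CD4SP against DN, and quantile normalization gave 38.1%, 43.4% and 36.8%. Median centring changed no call of the 9 genes. No scaling shifted the median of all genes by over 0.1. The replicate numbers are not stated to pair samples. Residuals of arrays numbered 1 correlated by 0.11 to 0.16, those numbered 2 by -0.03 to 0.09, those numbered 3 by 0.02 to 0.14 and those of different numbers by -0.16 to 0.08, and 11 of 12 arrays matched best with their own number in another group, a hint from the data and not from the design. With the replicate block, 5 genes rose in CD4SP against DP, adding H2-Oa (adjusted p = 0.0331 in limma), and no other call of the 9 genes changed. Signal over background is lost in these values, so how far dim probe sets limit the results is not known.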

Other observations

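Cd79b, the Igβ chain of the B cell receptor complex, ran apart from the other B cell markers. It lay at -5.07, -4.09 and -4.47 on the CD4SP arrays, against -0.44, 0.28 and 0.17 on the DP arrays, and fell by 4.55 ± 0.44 (adjusted p = 1.7e-05 in limma). On the CD8SP arrays it lay at -0.79, -0.11 and -0.08, and the direct CD4SP minus CD8SP difference was -4.22 ± 0.44 (adjusted p = 0.000221 in limma). Its partner Cd79a lay between -0.27 and 0.03 on the CD4SP arrays and between -0.13 and 0.07 on the DP arrays. Cd83, a membrane protein that keeps class II at the surface of dendritic and thymic epithelial cells, lay at 1.21, 1.35 and 1.04 on the CD4SP arrays and at 1.24, 1.82 and 1.78 on the CD8SP arrays, against -0.34, 0.47 and -0.13 on the DP arrays.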
